A study of Homo sapiens with 54 samples.

Results

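Interferon-stimulated genes are genes that cells switch on when interferon, a cytokine released during viral infection, binds its receptors. The 34 genes described here were chosen by name, and all 34 were among the 60642 human symbols of the expression table. After a filter on low values (1 TPM or more in at least 8 tumours), 31 of the 34 were tested, among 17593 genes in all. TPM is a measure of transcript abundance that accounts for transcript length.

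Type I interferon binds a receptor of 2 chains, IFNAR1 and IFNAR2, which carry the kinases TYK2 and JAK1. The kinases phosphorylate STAT proteins, among them STAT2, which joins IRF9 in the complex ISGF3, and this complex binds the interferon-stimulated response element (ISRE) in the promoters of its target genes. LNCaP cells are known for a loss of functional JAK1, so that interferon signals poorly in this line, and the levels of JAK1 and of the target genes are therefore given first.

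RNA-seq was performed on 54 tumours, 1 from each of 54 male NOD-SCID mice, aged 5 to 6 weeks when sourced, that were injected under the skin with LNCaP cells (clone FGC), an androgen-responsive human prostate cancer line. All tumours came from this 1 line, and surgery was done when a tumour measured about 200 mm3. NOD-SCID mice lack working T and B cells but keep myeloid cells, fibroblasts and vessels of their own, and the table holds human genes only. PRE-CX tumours (n = 9) grew in mice with mock surgery until the size endpoint. POST-CX tumours (n = 8) were taken a week after castration, when serum PSA, a protein secreted under androgen control, was at its lowest. CRPC tumours (n = 10) were taken from castrated mice once PSA had come back or the size endpoint was reached. Mice of the last pair of groups were castrated and then given enzalutamide, an antiandrogen, at 10 mg/kg by mouth on 5 days a week from the time PSA began to rise. Their tumours were taken at the second low point of PSA (ENZS, n = 12) or after PSA or tumour growth had returned under the drug (ENZR, n = 15).

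Human transcripts made up between 12.1% and 97.5% of all TPM of a tumour, with a median of 89.9%, so each tumour was rescaled to a human total of 1000000. ENZR mouse 87 (12.1%) and POST-CX mouse 91 (27.9%) stood apart. Where one of them held the highest value of a range given below for a member, the highest value without it follows. All 8 LNCaP markers examined, including KLK3 and FOLH1, were expressed. Of the 12 human leukocyte markers, PTPRC, CD3E, TYROBP, MS4A1 and NKG7 had a median below 0.05 TPM in each group. CD68, LYZ and FCER1G had the highest medians in PRE-CX, at 0.581, 0.605 and 0.417 TPM. Their medians were 3.33, 0.359 and 0.156 in ENZS and 1.64, 0.284 and 0.133 in ENZR. The summed level of the 12 leukocyte markers ranged from 0.923 to 4.41 TPM in PRE-CX, 0.777 to 10.3 in POST-CX and 0.56 to 5.25 in CRPC. The range was 1.37 to 12.8 in ENZS and 0.875 to 65.6 in ENZR. Mouse 91 was the highest in POST-CX and mouse 87 in ENZR. On TPM as deposited the highest sums of these groups were 2.88 and 11.3 TPM. CD68, a macrophage marker also made by other cells, was the only one of the 12 that passed the filter, and it was higher in ENZS than in PRE-CX by 1.34 on the log2 scale and in ENZR by 1.04. It was also higher than in CRPC, by 1.4 in ENZS and 1.10 in ENZR. The summed level of 11 fibroblast and vessel markers had medians of 16.8 TPM in PRE-CX, 24.1 in POST-CX, 28.3 in CRPC, 47.6 in ENZS and 61.1 in ENZR. Of the 6 that were tested, 4 were higher than in PRE-CX and 1 lower in each enzalutamide group, and 3 were higher and 2 lower in CRPC. VWF, made by vessel cells, was the lower one under enzalutamide and was also lower in CRPC, by -1.28. Its medians were 4.90 TPM in PRE-CX, 1.07 in CRPC, 1.55 in ENZS and 1.03 in ENZR. Against CRPC, VWF differed by 0.30 in ENZS and -0.15 in ENZR, neither of which passed. The vessel markers PECAM1, CDH5 and KDR had medians of at most 0.0107 TPM in each group, PRE-CX included. VWF alone therefore does not show how many vessel cells were present. The part of these markers in the results below was not tested, and in bulk tumours fewer cells of a type and less RNA per cell cannot be told apart.

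Most interferon-stimulated genes were expressed in the LNCaP tumours. A median of at least 1 TPM over the 54 tumours was found for 29 of the 34 genes, against 25.5% of all symbols, and 19 reached 1 TPM in each of the 54 tumours. The 34 are protein-coding genes, while the symbols also include non-coding RNAs, so these shares are not of like sets. The median reached 10 TPM for 10 members, led by ISG15 (55.4 TPM), PARP9 (50.7 TPM) and STAT2 (36.2 TPM). By group, 25 members had a median of at least 1 TPM in PRE-CX, 28 in POST-CX, 27 in CRPC, 31 in ENZS and 31 in ENZR. The 3 members that were not tested, IFI44L, XAF1 and BST2, reached 1 TPM in 2, 2 and 1 of the 54 tumours. OAS2 and SAMD9 passed the filter only through the enzalutamide groups (1 TPM or more in 3 and 7 of the 27 other tumours), so a difference in that direction was a condition of their being tested.

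JAK1 transcripts were present in every tumour. JAK1 ranged from 1.59 to 6.30 rescaled TPM in PRE-CX (median 5.19), from 4.42 to 7.36 in POST-CX (median 5.80), from 3.28 to 6.55 in CRPC (median 4.75), from 4.44 to 11.1 in ENZS (median 9.29) and from 6.35 to 22.6 in ENZR (median 8.22). The 3 groups without the drug overlapped. Each of the 15 ENZR tumours lay above the highest PRE-CX tumour, the lowest at 6.35 TPM against 6.30 (1.92% of all genes were above in this way). ENZR overlapped POST-CX and CRPC, and 10 of the 12 ENZS tumours lay above the PRE-CX range. JAK1 was higher in ENZS than in PRE-CX by 0.80 ± 0.16 on the log2(rescaled TPM + 1) scale (SE, limma adjusted p = 2.02e-05) and in ENZR by 0.85 ± 0.15 (limma adjusted p = 4.39e-06). Against CRPC the differences were 0.74 ± 0.15 for ENZS (limma adjusted p = 0.000289) and 0.79 ± 0.15 for ENZR (limma adjusted p = 0.000415). The highest value was that of ENZR mouse 87, which had 2.74 TPM before rescaling, and without it ENZR ranged from 6.35 to 10.6 TPM. On TPM as deposited the ENZR difference from CRPC did not pass (adjusted p = 0.0501, limma). Leaving out both tumours under 50% human gave 0.76 against PRE-CX for ENZR. TPM do not show whether the transcripts encode a working kinase.

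TYK2, the partner kinase, had medians between 52.1 and 64.5 TPM in the 5 groups, and its ENZS and ENZR differences from PRE-CX were 0.05 and 0.06 with adjusted p of 0.692 and 0.632 (limma). IFNAR1 differed by 0.25 and 0.24, which did not pass (limma adjusted p of 0.0979 and 0.0927). IFNAR2 passed with smaller standard errors, at 0.32 and 0.31.

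STAT2 and IRF9, the subunits of ISGF3 on the list, were higher in both enzalutamide groups than in PRE-CX. STAT2 ranged from 18.9 to 51.6 rescaled TPM in PRE-CX (median 28.5), 25.7 to 45.4 in POST-CX (38.5), 21.4 to 48.2 in CRPC (29.8), 30.3 to 59.6 in ENZS (38.5) and 31.1 to 63.3 in ENZR (42.2). The ranges overlapped, and all 27 enzalutamide tumours lay above the PRE-CX median. STAT2 was higher than in PRE-CX by 0.45 ± 0.14 in ENZS (limma adjusted p = 0.00504) and 0.57 ± 0.13 in ENZR (limma adjusted p = 0.000325). IRF9, the DNA-binding subunit, ranged from 4.09 to 10.2 TPM in PRE-CX (median 6.07), 4.87 to 18.3 in POST-CX (9.65), 4.83 to 10.1 in CRPC (7.47), 6.49 to 19.9 in ENZS (11.9) and 4.40 to 21.1 in ENZR (11.2). Without mouse 91 POST-CX reached 12.7, and without mouse 87 ENZR reached 19.1. IRF9 rose against PRE-CX by 0.74 ± 0.19 in ENZS (limma adjusted p = 0.000707) and 0.68 ± 0.18 in ENZR (limma adjusted p = 0.00125). The STAT2 calls were lost on TPM as deposited (limma adjusted p of 0.157 in ENZS and 0.27 in ENZR), and in ENZS also with median centring (0.211). IRF9 lost its ENZR call on TPM as deposited (limma adjusted p = 0.0686). In POST-CX, castrated without the drug, STAT2 and IRF9 differed from PRE-CX by 0.37 and 0.53. These differences did not pass (limma adjusted p of 0.0689 and 0.0524), but did so in 2 and 4 of the 10 settings run.

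IRF1, a transcription factor that binds ISRE-like sites on its own, showed the largest difference of all tested members between the enzalutamide groups and CRPC. Its levels ran from 1.89 to 6.82 TPM in PRE-CX (median 4.76), 2.06 to 7.42 in POST-CX (3.49), 2.43 to 5.45 in CRPC (3.84), 2.08 to 18.0 in ENZS (7.29) and 3.02 to 32.9 in ENZR (7.35). The spread within ENZS and ENZR was wide, and the lowest ENZS tumour lay below the lowest CRPC tumour. Against CRPC the differences were 0.91 ± 0.25 for ENZS (limma adjusted p = 0.00482) and 0.88 ± 0.24 for ENZR (limma adjusted p = 0.0073). The highest value, 32.9 TPM, was again ENZR mouse 87. Without it ENZR reached 15.4 TPM, and without mouse 91 POST-CX reached 3.89. Leaving out both tumours gave an ENZR difference of 0.74. IRF7, which drives interferon gene transcription, was higher in ENZS than in CRPC by 0.70 and in ENZR by 0.47.

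**Figure D1:**
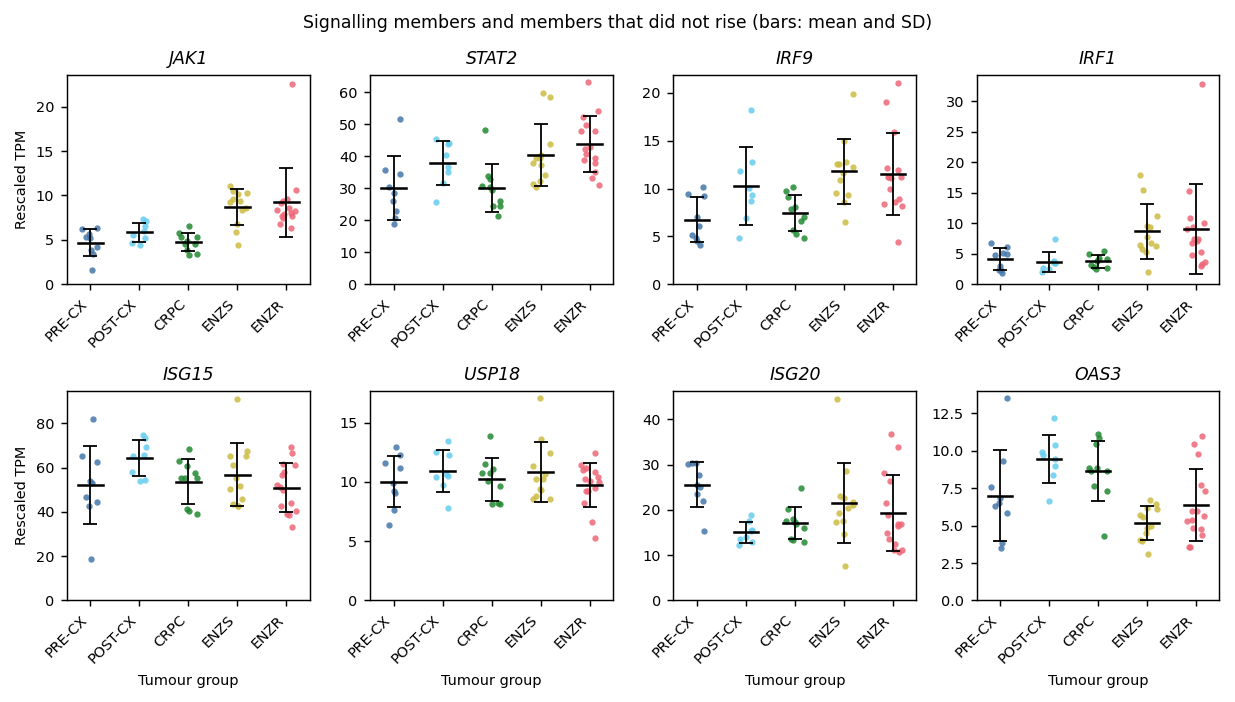
Rescaled TPM of JAK1, STAT2, IRF9, IRF1, ISG15, USP18, ISG20 and OAS3 (vertical axes, starting at 0) in the 5 tumour groups (horizontal axes), 1 point per tumour with the group mean and SD as bars. The 15 ENZR tumours lie above all PRE-CX tumours for JAK1, while ISG15 and USP18 show overlapping groups throughout and ISG20 is highest on average in PRE-CX.

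The ISRE was looked for in the RefSeq promoter windows of the members (250 bases before to 50 after the gene start, GRCh38.p14), spelled as GAAA, any 2 bases and GAAA again, or on the other strand as TTTC, any 2 bases and TTTC. A window was given for 28 of the 34 members, and 18 of the 28 (64.3%) held a match, against 4.38% of all 27305 genes with a window. TRIM22, IRF7, OASL, IFIT2, USP18 and OAS2 had no window. The 150 bases before the start of 4 members that were higher than in PRE-CX in all 4 other groups (IFIT1, IFIT5, IFI6 and PARP14) and of 2 that were not, ISG15 and OAS3, are shown with the matches in capitals, so that the element can be compared between them. They are read on the gene's strand, at chr10:89392473-89392622 (plus strand) for IFIT1, chr10:89414418-89414567 (plus) for IFIT5, chr1:27672193-27672342 (minus) for IFI6, chr3:122680689-122680838 (plus) for PARP14, chr1:1013347-1013496 (plus) for ISG15 and chr12:112938324-112938473 (plus) for OAS3.
IFIT1: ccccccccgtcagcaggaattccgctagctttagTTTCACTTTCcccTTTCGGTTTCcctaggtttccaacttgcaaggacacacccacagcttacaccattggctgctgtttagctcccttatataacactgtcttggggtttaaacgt
IFIT5: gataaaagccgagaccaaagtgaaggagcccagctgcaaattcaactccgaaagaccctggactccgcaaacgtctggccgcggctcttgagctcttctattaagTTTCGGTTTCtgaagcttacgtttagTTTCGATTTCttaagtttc
IFI6: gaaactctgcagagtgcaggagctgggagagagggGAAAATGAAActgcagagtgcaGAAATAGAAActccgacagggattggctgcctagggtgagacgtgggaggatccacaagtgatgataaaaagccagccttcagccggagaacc
PARP14: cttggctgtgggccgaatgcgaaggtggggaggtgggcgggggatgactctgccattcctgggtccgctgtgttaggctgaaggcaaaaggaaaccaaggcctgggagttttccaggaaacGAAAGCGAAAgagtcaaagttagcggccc
ISG15: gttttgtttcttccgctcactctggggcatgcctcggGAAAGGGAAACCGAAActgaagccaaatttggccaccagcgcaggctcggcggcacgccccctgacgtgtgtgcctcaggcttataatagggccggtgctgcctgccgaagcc
OAS3: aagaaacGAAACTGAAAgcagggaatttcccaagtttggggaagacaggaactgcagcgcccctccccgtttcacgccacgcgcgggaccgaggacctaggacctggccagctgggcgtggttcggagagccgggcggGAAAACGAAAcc

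All 6 windows shown held the element, and ISG15 held a pair of overlapping matches. The 6 were taken from members with a match, so this count does not show how common the element is among higher members. IFI35, also higher than in PRE-CX in every other group, had no match in its window and is not shown. PARP9 and DTX3L, neighbours on chromosome 3 transcribed away from each other, had 1 match in common, at chr3:122564332-122564341 on GRCh38.p14. In ENZS against PRE-CX, 11 of the 16 tested members with a match were higher and 8 of the 9 without one, while 6 and 1 of these were at least 1 higher on the log2 scale. The 11 include SAMD9, which passed the filter only through the enzalutamide groups, so its direction was a condition of its being tested. Among the 416 tested genes outside the list that held a match, 53.6% were higher and 13.9% were at least 1 higher. Of all 10972 tested genes with a window, 48.6% were higher and 10.5% at least 1 higher. A match is a description of the letters and not evidence of binding.

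Against PRE-CX, enzalutamide-treated tumours had higher levels of most tested members. In ENZS, 22 of the 31 were higher and 0 lower, beside 47.5% of all tested genes higher and 13.6% lower. In ENZR 21 were higher and 1 lower (all genes 44.6% and 13.8%). Leaving out OAS2 and SAMD9, a choice made after seeing the data, left 20 of 29 higher in ENZS and 19 of 29 in ENZR. A log2 difference of at least 1 was reached by 8 members in ENZS (10.5% of all genes) and 7 in ENZR (7.38%), and by 1 in POST-CX (2.39%) and 2 in CRPC (2.18%). These counts follow the scale: with median centring they were 4, 3, 0 and 0, with a pseudocount of 0.1 TPM 13, 13, 5 and 6, and on TPM as deposited 8, 4, 0 and 2, in that order of groups. The median difference of the 31 members was 0.78 in ENZS and 0.68 in ENZR (0.74 and 0.68 without OAS2 and SAMD9), beside 0.29 and 0.25 over all tested genes. Many genes thus stood higher on this scale, and when each tumour was centred on the median of its genes instead, the medians over all genes moved by more than 0.1, to -0.00 in ENZS and -0.01 in ENZR. Of the genes called in ENZS the higher share then went from 77.8% to 48.4%, and in ENZR from 76.4% to 46.7%. The members then counted 17 higher and 2 lower in ENZS and 18 higher and 4 lower in ENZR, with median differences of 0.49 and 0.42. The calls lost in ENZS were STAT2, IRF1, IRF7, OAS1 and IFIH1, and those lost in ENZR were IRF1, RSAD2 and IFIH1. On TPM as deposited, 21 members were higher in ENZS and 16 in ENZR, where DTX3L, IFIH1, IRF9, SP100 and STAT2 no longer passed.

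**Figure D2:**
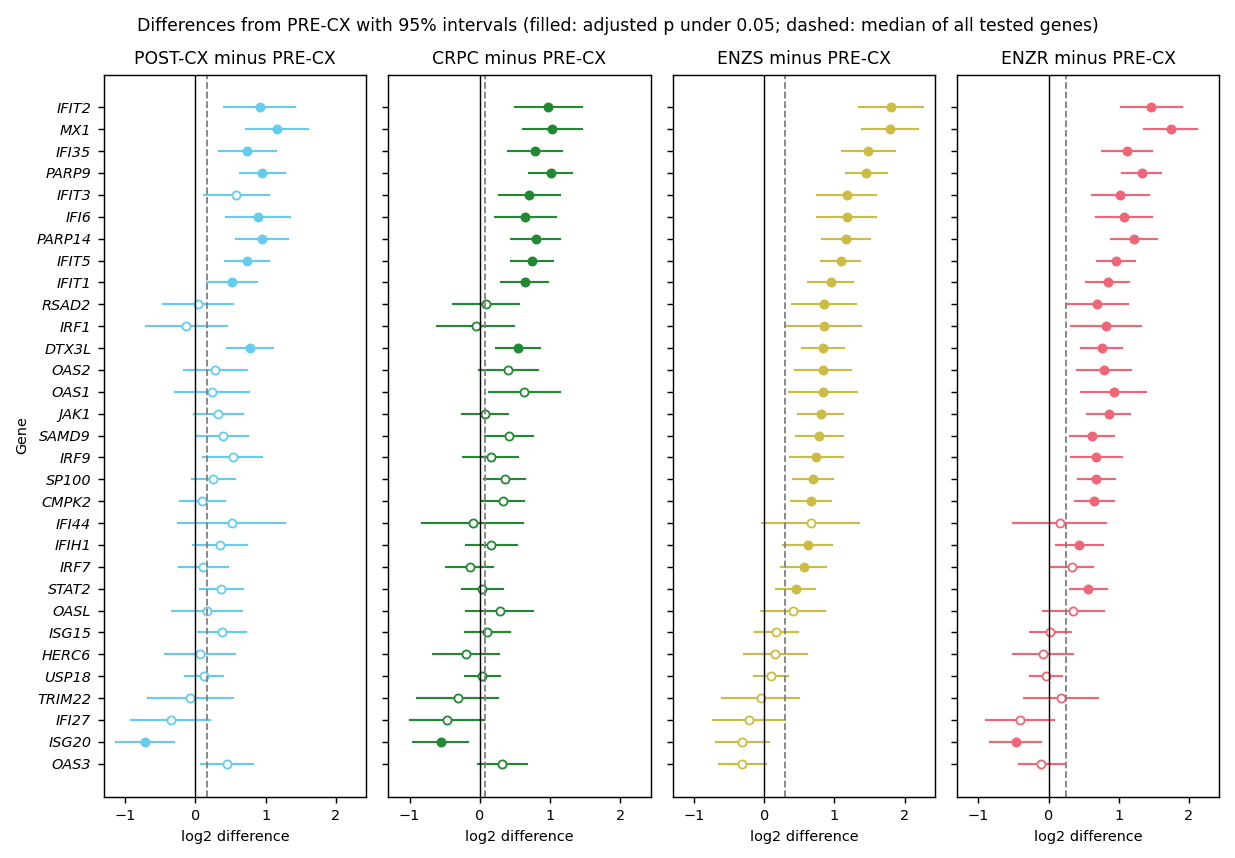
The log2 difference from PRE-CX (horizontal axes, log2(rescaled TPM + 1) scale) of the 31 tested members (rows) in POST-CX, CRPC, ENZS and ENZR, with 95% intervals as lines, filled points for an adjusted p under 0.05 and a dashed line at the median of all 17593 tested genes. IFIT2 and MX1 lead in ENZS with 1.81 and 1.80, and 9 members are open there.

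MX1, a GTPase that traps viral nucleocapsids, was among the members whose groups overlapped least. It ranged from 1.19 to 3.45 TPM in PRE-CX (median 1.95), 3.80 to 10.0 in POST-CX (5.57), 2.30 to 9.39 in CRPC (5.75), 5.28 to 15.2 in ENZS (9.14) and 2.95 to 16.1 in ENZR (8.48). All 12 ENZS and all 8 POST-CX tumours lay above the highest PRE-CX tumour, as did 14 of the 15 ENZR and 7 of the 10 CRPC tumours. Without mouse 91 POST-CX reached 6.62 TPM. The differences from PRE-CX were 1.16 ± 0.22 in POST-CX (limma adjusted p = 0.000107), 1.03 ± 0.21 in CRPC (limma adjusted p = 0.000252), 1.80 ± 0.20 in ENZS (limma adjusted p = 1.74e-10) and 1.74 ± 0.19 in ENZR (limma adjusted p = 1.92e-10). Relative to the median of all tested genes the ENZS difference was 1.51. In ENZS 4 members had no overlap with PRE-CX (MX1, IFI6, IFI35 and PARP9; 9.19% of all genes were above in this way), in ENZR only JAK1 did (1.92%), in POST-CX MX1 and PARP9 did (3.82%) and in CRPC no member did (0.87%).

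The IFIT genes encode proteins that bind foreign RNA and lie side by side on chromosome 10. The 4 IFIT genes among the members were all higher than in PRE-CX in CRPC, ENZS and ENZR. Against CRPC, IFIT2 (0.83) and IFIT5 (0.34) passed in ENZS and none of the 4 in ENZR. The IFIT2 call held in all 10 settings. The IFIT5 call (limma adjusted p = 0.0435) was lost on TPM as deposited and with median centring. It was also lost with a pseudocount of 0.1 TPM, without a filter and with the compared groups only. IFIT2 ranged from 0.256 to 5.16 TPM in PRE-CX (median 1.58), 2.57 to 9.22 in POST-CX (4.18), 1.74 to 7.81 in CRPC (5.15), 4.32 to 14.1 in ENZS (9.98) and 3.84 to 13.8 in ENZR (6.97). Without mouse 91 POST-CX reached 5.77. Of the 12 ENZS tumours 11 lay above the PRE-CX range. The IFIT2 difference from PRE-CX was 1.81 ± 0.23 in ENZS (limma adjusted p = 3.21e-09) and 1.46 ± 0.22 in ENZR (limma adjusted p = 2.06e-07). IFIT3 was lower in abundance, with medians of 0.778 TPM in PRE-CX, 1.53 in POST-CX, 1.98 in CRPC, 3.18 in ENZS and 2.30 in ENZR, and ranges of 0.185 to 1.28 in PRE-CX and 1.01 to 5.07 in ENZS. Its differences were 1.17 ± 0.21 and 1.02 ± 0.20 in ENZS and ENZR (limma adjusted p of 4.49e-06 and 2.64e-05). IFIT5 went from 1.49 to 4.33 TPM in PRE-CX (median 2.20), 3.65 to 5.67 in POST-CX (4.14), 2.38 to 6.30 in CRPC (4.23), 2.52 to 7.79 in ENZS (6.09) and 3.39 to 9.78 in ENZR (4.80). Leaving out mouse 91, the highest POST-CX value of IFIT5 was 4.91. The differences of IFIT5 were 0.73 in POST-CX, 0.74 in CRPC, 1.09 in ENZS and 0.95 in ENZR, each past the threshold. IFIT1, near 1 TPM, moved from a median of 0.652 in PRE-CX to 2.46 in ENZS (difference 0.95 ± 0.16) and its change is understated by the pseudocount of 1 TPM. The IFIT genes are alike in sequence, so the division of reads among them is uncertain.

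PARP9, PARP14 and DTX3L, close together on chromosome 3, encode ADP-ribosyltransferases and the ubiquitin ligase DTX3L that pairs with PARP9, and all 3 were higher than in PRE-CX in each castrated group. PARP9 ranged from 12.8 to 37.0 TPM in PRE-CX (median 23.3), 38.6 to 57.0 in POST-CX (41.1), 23.6 to 59.9 in CRPC (47.0), 45.2 to 83.2 in ENZS (60.8) and 29.2 to 86.5 in ENZR (57.9). Without mouse 91 POST-CX reached 46.6. Every POST-CX and every ENZS tumour lay above the PRE-CX range. PARP9 was higher than in PRE-CX by 0.95 ± 0.16 in POST-CX (limma adjusted p = 1.74e-05), 1.01 ± 0.15 in CRPC (limma adjusted p = 2.12e-06), 1.46 ± 0.15 in ENZS (limma adjusted p = 1.25e-11) and 1.33 ± 0.14 in ENZR (limma adjusted p = 4.94e-11). PARP14 had medians of 2.64, 5.70, 5.77, 7.27 and 7.58 TPM in the order PRE-CX, POST-CX, CRPC, ENZS, ENZR, and differences from PRE-CX of 0.94, 0.80, 1.17 and 1.22. DTX3L had medians of 16.3, 27.6, 24.8, 28.4 and 29.1 TPM, and its differences were 0.78, 0.54, 0.84 and 0.76.

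IFI35, a partner of NMI in the innate response, and IFI6, a small membrane protein of the endoplasmic reticulum and mitochondria, were higher than in PRE-CX as well. IFI35 ranged from 6.43 to 20.2 TPM in PRE-CX (median 13.1), 15.4 to 39.0 in POST-CX (20.1), 11.9 to 32.4 in CRPC (24.0), 21.8 to 52.8 in ENZS (41.1) and 15.6 to 42.9 in ENZR (30.0). Without mouse 91 POST-CX reached 24.3. The ENZS range began above the highest PRE-CX tumour, and the difference was 1.48 ± 0.19 in ENZS (limma adjusted p = 3.15e-09) and 1.12 ± 0.18 in ENZR (limma adjusted p = 7.95e-07). IFI6 ranged from 2.05 to 9.41 TPM in PRE-CX (median 6.14), 6.24 to 33.0 in POST-CX (11.1), 5.20 to 13.2 in CRPC (9.73), 9.80 to 22.2 in ENZS (14.1) and 5.08 to 25.2 in ENZR (14.0). Its highest value was POST-CX mouse 91, without which POST-CX reached 13.3 TPM. IFI6 differed from PRE-CX by 0.89 ± 0.23 in POST-CX (limma adjusted p = 0.00327), by 1.17 ± 0.21 in ENZS (limma adjusted p = 3.91e-06) and by 1.07 ± 0.20 in ENZR (limma adjusted p = 1.06e-05). The POST-CX difference without the tumours under 50% human was 0.68.

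**Figure D3:**
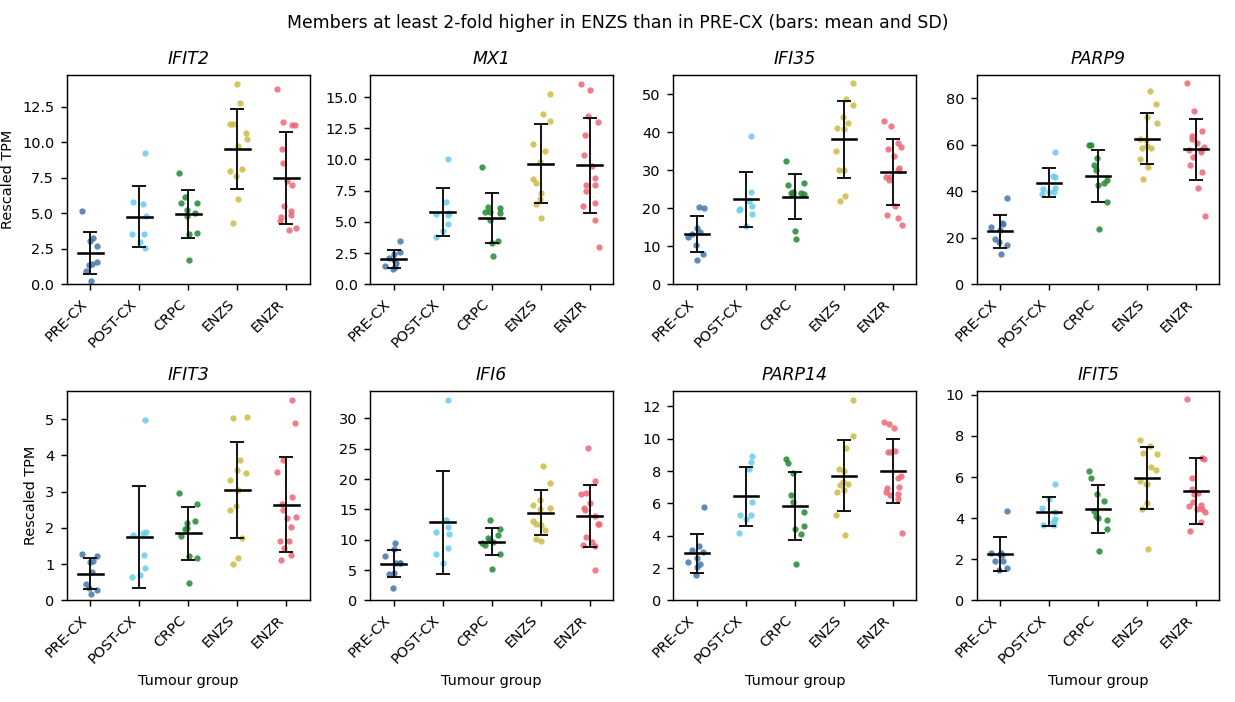
Rescaled TPM of the 8 members with a log2 difference of at least 1 between ENZS and PRE-CX (vertical axes, starting at 0) in the 5 tumour groups (horizontal axes), 1 point per tumour with the group mean and SD as bars. MX1, IFI6, IFI35 and PARP9 in ENZS lie wholly above PRE-CX, and POST-CX mouse 91 is the high IFI6 point at 33.0.

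The other members that were higher than in PRE-CX in both enzalutamide groups differed by less than 1. OAS1 and OAS2, which make the oligoadenylate second messenger in response to double-stranded RNA, differed from PRE-CX by 0.83 and 0.84 in ENZS and by 0.93 and 0.78 in ENZR, while OAS3, which lies between them on chromosome 12, did not (-0.31 and -0.10). OAS2 stayed near 1 TPM even in ENZS (median 1.09). RSAD2 (viperin) and CMPK2, neighbours on chromosome 2 that act on nucleotides, differed by 0.85 and 0.67 in ENZS. The RNA sensor IFIH1 (MDA5) differed by 0.62 and 0.44, SAMD9 by 0.78 and 0.62, and the nuclear body protein SP100 by 0.70 and 0.68 in ENZS and ENZR.

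In ENZS against PRE-CX, 9 of the 31 members did not pass. ISG15, the ubiquitin-like modifier, had medians of 53.1, 65.2, 55.4, 53.5 and 51.2 TPM in the groups in the order PRE-CX, POST-CX, CRPC, ENZS, ENZR, and its ENZS difference was 0.17 with a 95% interval of -0.13 to 0.48. USP18, which removes ISG15 and damps receptor signalling, had medians between 9.89 and 10.6 TPM and an ENZS difference of 0.10 (-0.14 to 0.35). USP18 has a near-identical copy, so its level is uncertain. HERC6, IFI27, TRIM22, OASL, IFI44, ISG20 and OAS3 were the others, with differences from -0.31 to 0.66. A missed threshold does not show that the levels were equal, and with median centring ISG20 and OAS3 were called lower in ENZS, and IFI27, ISG20, OAS3 and USP18 in ENZR. ISG20, an exonuclease that degrades single-stranded RNA, went the other way. Its medians were 25.6 TPM in PRE-CX, 14.7 in POST-CX, 17.1 in CRPC, 20.8 in ENZS and 16.8 in ENZR, and it was lower than in PRE-CX by -0.72 ± 0.21 in POST-CX (limma adjusted p = 0.00867), -0.56 ± 0.20 in CRPC (limma adjusted p = 0.0371) and -0.47 ± 0.18 in ENZR (limma adjusted p = 0.0236).

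**Figure D4:**
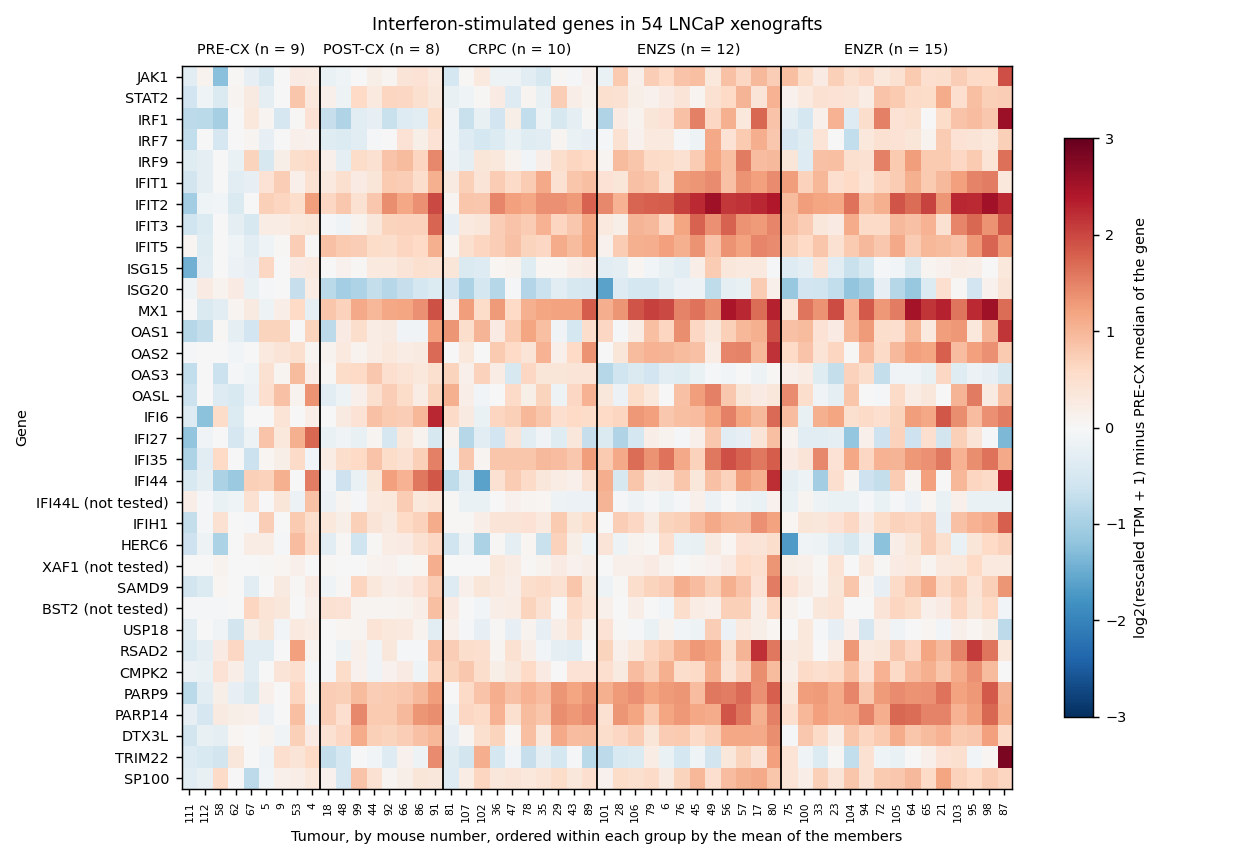
Difference of log2(rescaled TPM + 1) from the PRE-CX median of each gene (colour, red higher and blue lower, clipped at 3) for the 34 members (rows) in the 54 tumours (columns, grouped, ordered within a group by the mean of the members). IFIT2, MX1, IFI35, PARP9 and PARP14 are red in most ENZS and ENZR tumours, and ISG20 is blue in most POST-CX tumours.

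Fewer members were called in the groups castrated without the drug. These tumours also differed from PRE-CX in when they were taken, which cannot be told apart from castration. Against PRE-CX, 9 members were higher in POST-CX (20.6% of all genes) and 1 lower (5.62%), and 10 were higher in CRPC (14.2%) and 1 lower (5.87%). The 9 were IFIT1, IFIT2, IFIT5, MX1, IFI6, IFI35, PARP9, PARP14 and DTX3L, and IFIT3 was the tenth in CRPC. On TPM as deposited, without rescaling, 1 member, MX1, was higher in POST-CX, where all-gene calls also fell, from 3631 to 284. JAK1, IRF1, IRF7, STAT2, IRF9 and RSAD2 were not among the 9 or the 10, with differences between -0.14 and 0.53. All 4 comparisons use the same 9 PRE-CX tumours, so they are not independent of each other.

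ENZS was compared with CRPC to set tumours responding to enzalutamide against castrated tumours without it. Of the 31 members 14 were higher (31.4% of all genes) and 1 lower (6.41%), and in ENZR against CRPC 8 were higher (21.2%) and 1 lower (5.45%). Members that were higher in both were JAK1, STAT2, IRF1, IRF7, IRF9, MX1 and RSAD2, with 0.76 ± 0.19 for MX1 in ENZS (limma adjusted p = 0.00205) and 0.70 ± 0.18 in ENZR (limma adjusted p = 0.00517). RSAD2 ranged from 0.376 to 1.89 TPM in CRPC (median 0.912), 0.924 to 6.92 in ENZS (2.22) and 0.709 to 6.36 in ENZR (1.65), with overlapping groups. IFI35 was higher in ENZS than in CRPC by 0.70. OAS3 was the lower member, with 4.32 to 11.1 TPM in CRPC (median 8.72), 3.11 to 6.70 in ENZS (5.27) and 3.54 to 11.0 in ENZR (5.62). The OAS3 difference from CRPC was -0.64 ± 0.16 in ENZS (limma adjusted p = 0.00219) and -0.42 ± 0.15 in ENZR (limma adjusted p = 0.0371), and the ENZR call was lost without the tumours under 50% human (adjusted p = 0.0536). On TPM as deposited 6 members were higher in ENZS (JAK1, IRF1, IRF7, IFIT2, MX1 and RSAD2) and 0 in ENZR, and with median centring 7 and 4.

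Relapse was not accompanied by a called change of any member. Between ENZR and ENZS the limma fit called 0 of the 31 members and 0% of all genes, with 1 member, IFI35, at an unadjusted p under 0.05 (-0.37, adjusted p = 0.451) and 1752 genes in all at that level, and with array weights 0 members. Between CRPC and POST-CX it called 0 members, beside 0.00568% of all genes higher and 0.0568% lower. One member, STAT2, was at an unadjusted p under 0.05 (-0.33, limma adjusted p = 0.344). With array weights 3 members were lower, namely STAT2, ISG15 and IRF7. The step ENZR minus ENZS did not differ from the step CRPC minus POST-CX in any member at the threshold (0.0966% of all genes higher and 0.102% lower), and STAT2 had the smallest p among the members, with a difference between the steps of 0.45 ± 0.19 (limma adjusted p = 0.289).

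Tumours of one group differed widely. In PRE-CX, 1 of 31 members lay above the group's median in mouse 111 and 2 in mouse 112, against 27 in each of mice 4 and 53, and over all tested genes these tumours had 24.8%, 42.4%, 61.6% and 68.8% of genes above. Mouse 111 held the lowest value of the 54 tumours for 14 members. In ENZS the count ran from 4 (mouse 101) to 29 (mouse 80) and in ENZR from 4 to 27. ENZR mouse 87 held the highest value for 8 members, and POST-CX mouse 91 had 27 of 31 above its group median with 41.6% of all genes above theirs. Counted against the PRE-CX median, at least 22 of 31 members were above in every ENZS tumour and at least 21 in every ENZR tumour. The lowest counts in POST-CX and CRPC were 17 and 15.

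**Figure D5:**
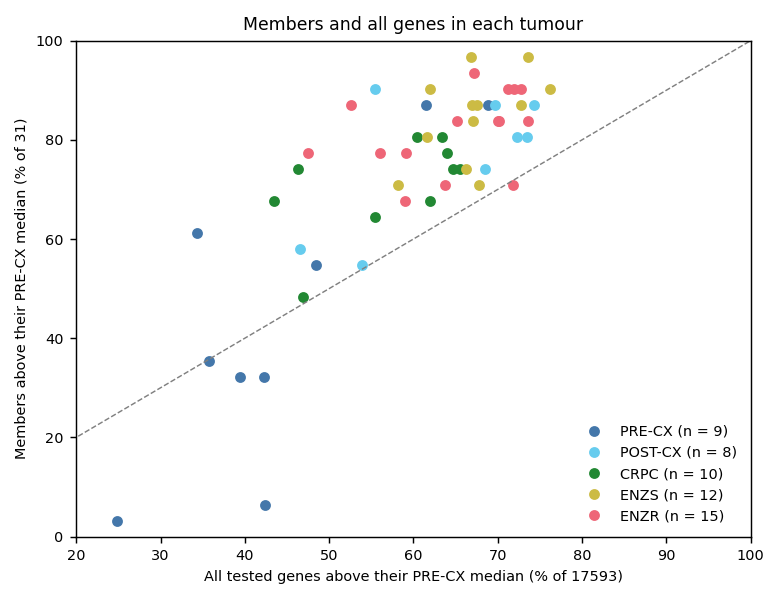
Share of the 31 tested members above their PRE-CX median (vertical axis, %) against the share of all 17593 tested genes above theirs (horizontal axis, %), 1 point per tumour, with a dashed line where both shares are equal. All 12 ENZS and 14 of the 15 ENZR tumours lie above the line (the exception is mouse 72), with 22 to 30 and 21 to 29 of 31 members above. All POST-CX and CRPC tumours, castrated without the drug, also lie above it, with 17 to 28 and 15 to 25 members above.

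Other genes of the pathway were taken from 4 lists. All 22 interferon ligand genes stayed below 1 TPM in each tumour, 12 were listed at 0 throughout and the highest value of any was 0.494 TPM. Of 22 genes for receptors and JAK-STAT signalling 18 were tested, and against PRE-CX 13 were higher and 1 lower in ENZS, and 12 and 0 in ENZR. The shares of all tested genes, for this list and the next 2, were 47.5% higher and 13.6% lower in ENZS and 44.6% and 13.8% in ENZR. JAK2, a kinase of the interferon gamma receptor, ranged from 1.82 to 7.27 TPM in PRE-CX and from 10.5 to 24.9 in ENZS, without overlap, and differed by 1.72 ± 0.20 in ENZS (limma adjusted p = 4.55e-10) and 1.32 ± 0.19 in ENZR (limma adjusted p = 1.03e-07). NMI, the partner of IFI35, differed by 1.61 and 1.11, and the receptor chain IFNGR1 by 0.88 and 0.79.

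Of 21 genes that sense nucleic acids 16 were tested, with 7 higher and 1 lower in ENZS and 7 and 0 in ENZR, shares of higher genes near those of all genes. The RNA sensor DDX58 (RIG-I) differed by 1.25 and 1.13. STING1, the adaptor of cytosolic DNA sensing, was lower in ENZS by -0.67 and had -0.41 in ENZR, which did not pass. Of 50 further interferon-stimulated genes 38 were tested, with 27 higher and 3 lower in ENZS and 22 and 3 in ENZR. GBP3, a guanylate-binding protein, led with 2.60 and 2.38, from a median of 1.27 TPM in PRE-CX to 15.9 in ENZS and 11.8 in ENZR. UBE2L6, the conjugating enzyme for ISG15, differed by 1.82 and 1.68, while LY6E was lower by -0.93 and -1.14. The median differences of the 3 tested lists in ENZS were 0.51, 0.23 and 0.54, beside 0.29 over all genes.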

How the data were processed

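RNA was measured in 54 LNCaP xenografts, grouped by the sample group in the labels. The labels give no batch. According to the methods and the submitters' processing notes, reads were checked with FastQC 0.11.9, trimmed with Trim Galore 0.6.5, aligned with STAR 2.7.2b to a joint human (GRCh38) and mouse (GRCm38) reference and quantified with RSEM 1.3.3. The authors deposited 1 TPM value per human symbol and tumour. TPM hold no read depth, so no counting interval is given and precision rests on the spread between tumours. RSEM divides reads among near-identical copies, which makes paralogs uncertain.

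Each tumour was rescaled to a total of 1000000 and log2(rescaled TPM + 1) was tested with limma 3.58.1 (R 4.3.3), trend option, in 1 fit of the 5 group means over the 17593 genes that reached 1 TPM in 8 or more tumours, two-sided, with Benjamini-Hochberg adjustment over all genes in each comparison and a threshold of 0.05. The log2 scale understates changes of genes near 1 TPM. The code was checked on simulated data. The 8 comparisons set the 4 other groups against PRE-CX, ENZS and ENZR against CRPC, ENZR against ENZS and CRPC against POST-CX, and 1 further contrast compared the relapse steps. Alternatives were TPM as deposited, median centring, a pseudocount of 0.1, no filter, a filter of 27 tumours, leaving out tumours under 50% or 70% human, compared groups only and array weights.

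Full values were given for JAK1, STAT2 and IRF9 and, in each comparison, up to 8 passing members with the largest difference. From the lists, up to 6 passing genes each, and TYK2, IFNAR1 and IFNAR2, could be named, and some of these genes are not reported here. The members and lists were chosen with earlier results of these data known. Promoter windows are those of RefSeq on GRCh38.p14. Each tumour came from its own mouse. Figures were drawn with matplotlib 3.10.9 in Python 3.11.15.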

Additional observations from a re-analysis of the deposited data

Results flagged for a closer look

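In the 93 pairs of a tested member and a group of at most 10 tumours, 1 tumour stood apart from the others of its group by Dixon's criterion in 12 pairs, where chance gives about 1 in 20. Of the 12, 5 were high values in POST-CX mouse 91, in which 27.9% of TPM were human. They were IRF1 at 7.42 rescaled TPM (the other POST-CX tumours 2.06 to 3.89), IFIT3 at 4.98 (0.653 to 1.88), OAS2 at 2.44 (0.138 to 0.328), IFI6 at 33.0 (6.24 to 13.3) and TRIM22 at 5.24 (0.402 to 1.55). As deposited, before rescaling, the same tumour had 2.07, 1.39, 0.68, 9.21 and 1.46 TPM of these genes.

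In PRE-CX, JAK1 was low in mouse 58 at 1.59 TPM (the others 3.45 to 6.30) and ISG15 was low in mouse 111 at 18.8 TPM (42.8 to 82.1). PRE-CX mouse 53 was high in IFIT5 at 4.33 TPM (1.49 to 2.33) and low in ISG20 at 15.4 TPM (22.0 to 30.4). In CRPC, OAS3 was low in mouse 47 at 4.32 TPM (7.28 to 11.1), TRIM22 was high in mouse 102 at 3.93 TPM (0.32 to 1.23) and SP100 was low in mouse 81 at 11.6 TPM (18.2 to 24.6). The cause of these values was not tested. ENZS and ENZR, with more than 10 tumours each, were not examined in this way.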

How the results depend on the processing

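Of 68 single results examined, 56 passed, 34 of these passed under every alternative run, and 0 of the 68 reversed direction. TPM as deposited lost the call of 22 and median centring of 7. Counts of members higher or lower moved by more than 1.5 times as follows, and the cause was not tested. With TPM as deposited, members higher were 1 in POST-CX against PRE-CX (9 in the reported fit), 6 in ENZS against CRPC (14) and 0 in ENZR against CRPC (8), and members lower were 0 in CRPC against PRE-CX (1) and 0 in ENZR against CRPC (1). With median centring, members higher were 7 in ENZS against CRPC and 4 in ENZR against CRPC, and members lower were 2 in ENZS against PRE-CX and 4 in ENZR against PRE-CX. With array weights, members higher were 17 in POST-CX against PRE-CX and 14 in ENZR against CRPC, members lower were 2 in CRPC against PRE-CX, 2 in ENZS against PRE-CX and 3 in CRPC against POST-CX, and the relapse steps differed in 1 member, STAT2. Without a filter the lower member was lost (0) in CRPC against PRE-CX, and it was lost (0) in ENZR against CRPC without a filter, without the tumours under 50% or under 70% human, and with the compared groups only.

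All-gene calls in ENZS against PRE-CX were 8364 higher and 2386 lower, with median centring 4679 and 4983, and with TPM as deposited 5189 and 1401. No paired analysis was possible because the groups share no mouse numbers. TPM hold no depth, so low members such as OAS2 and SAMD9 are limited by the pseudocount.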
